A study of Homo sapiens with 6 samples.

Results

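The data describe the peaks of DNA N6-methyladenine (6mA) on human chromosome 20 in MDA-MB-453 cells, an established breast cancer cell line. The members were all 4333 peaks with chromosome 20 as their chromosome, of 143552 peaks in all. The chromosome was selected on its measured peak density, so that density is described here and not tested. Cells were transfected for 48 h with 10 nM of a scramble siRNA (Control) or of an siRNA against N6AMT1 (si-N6AMT1). Each group had 2 immunoprecipitated libraries, and each of these gave 1 peak list. The cells are 1 line with no other genetic change stated, and the siRNA sequences and the N6AMT1 level in these libraries were not analysed here.

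6mA is adenine with a methyl group on its amino nitrogen, a base well known from bacteria. N6AMT1 is a methyltransferase that the study examined as a writer of 6mA, and the study asked where the mark lies and which sites depend on N6AMT1. In 6mA-IP-seq, fragments bound by a 6mA antibody are sequenced, and a peak is a place where fragments pile up over the background expected from the input DNA. Chromosome 20 is small, with a short arm (20p) and a gene-rich long arm (20q), and copy gain of 20q is common in breast cancer.

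Peaks of the 4 libraries that shared 1 bp or more were merged into 2017 regions on chromosome 20, of 72537 in the series. A library with a peak there was taken to have called the region. The strongest regions were simple tandem repeats, and 6 regions are shown because their letters recur in the results. Each line gives 120 bases of the hg19 (GRCh37) plus strand on the summit, the highest point of the peak. Capitals mark the 8-letter repeats found by script on either strand: CA units (TG on the other strand), GGAA or GAAA units, GA units and runs of A (T on the other strand).
MYT1 intron, chr20:62784994-62785113: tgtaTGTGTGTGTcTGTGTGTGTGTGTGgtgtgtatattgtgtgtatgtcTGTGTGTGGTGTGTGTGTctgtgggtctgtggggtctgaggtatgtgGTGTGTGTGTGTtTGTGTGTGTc
noncoding RNA intron near ADIG, chr20:37218957-37219076: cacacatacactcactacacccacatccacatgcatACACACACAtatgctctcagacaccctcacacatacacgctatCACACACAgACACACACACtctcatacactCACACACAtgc
MROH8 intron, chr20:35792479-35792598: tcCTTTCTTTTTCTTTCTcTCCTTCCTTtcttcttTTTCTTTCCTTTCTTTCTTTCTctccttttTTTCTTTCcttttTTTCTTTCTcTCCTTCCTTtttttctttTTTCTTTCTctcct
CDH4 intron, chr20:60019818-60019937: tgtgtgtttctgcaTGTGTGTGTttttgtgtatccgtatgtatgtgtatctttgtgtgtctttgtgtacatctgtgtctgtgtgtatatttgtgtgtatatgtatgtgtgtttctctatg
FOXS1 promoter, chr20:30433723-30433842: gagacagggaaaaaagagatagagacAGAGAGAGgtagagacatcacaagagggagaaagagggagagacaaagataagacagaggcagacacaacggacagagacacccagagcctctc
PTPRT intron, only Control, chr20:41645117-41645236: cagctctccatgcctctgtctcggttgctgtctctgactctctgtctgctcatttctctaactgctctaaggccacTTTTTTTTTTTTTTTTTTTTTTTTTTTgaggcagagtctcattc
The first 5 were called in all 4 libraries. The CDH4 region was chosen after its values were seen, as the strongest in that gene.

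The first 3 of these were among the 5 highest-ranking regions of the chromosome, of which 4 are described here. The other is not reported on its own, and the overlap of groups given below does not speak for it. The fold, short for fold enrichment, is the pileup at the summit over the background, with 1 added to each. In the MYT1 intron the fold was 24.8 and 21.3 in Control, against 22.1 and 17.0 in si-N6AMT1, and the groups overlapped. MYT1 encodes a zinc finger factor of the developing nervous system. The region near ADIG, an adipocyte gene, gave 18.3 and 17.7 in Control, against 19.96 and 14.3 in si-N6AMT1, and the groups overlapped as well. The MROH8 intron, a stretch of C and T without an A on the plus strand, gave 16.8 and 16.9 in Control, against 17.5 and 16.6 in si-N6AMT1. A region 13.4 kb from the galactosyltransferase gene B4GALT5, also among the 5, held GGAT units, with a fold of 18.98 and 12.2 in Control, against 16.4 and 19.8 in si-N6AMT1.

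Control replicates 1 and 2 had 934 and 1042 peaks on chromosome 20, and si-N6AMT1 replicates 1 and 2 had 1172 and 1185. Both si-N6AMT1 lists were longer, with means of 1178.5 ± 9.19 against 988 ± 76.4 (SD, n = 2), a difference of 190.5 peaks or 19.3% (exact two-sided permutation test, p = 0.333, the smallest that 2 libraries against 2 allow). The whole lists were longer too, at 30451 and 33410 peaks in Control, against 38847 and 40844 in si-N6AMT1, and the depth recovered from the lists was 1.32, 1.385 and 1.5001 times that of Control replicate 1 in the other 3 libraries. Of all autosomal peaks, chromosome 20 held 3.17% and 3.23% in Control, against 3.12% and 3.004% in si-N6AMT1. The difference was -0.135 percentage points (exact permutation p = 0.333), -0.0765 without si-N6AMT1 replicate 2, and 0.0833 when each library kept the same number of its strongest peaks. The rise in number from Control to si-N6AMT1, 1.19-fold, was the lowest of the 22 autosomes. Peak lists cannot tell fewer modified molecules from fewer sequenced fragments, and the part of depth in these numbers was not tested.

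Per assembled Mb, chromosome 20 held 15.7 and 17.5 peaks in Control, against 19.7 and 19.9 in si-N6AMT1. It ranked first of the 22 autosomes in 3 libraries and second in si-N6AMT1 replicate 2. Chromosome 14 was next, with 15.5, 17.1, 19.6 and 20.01 peaks per Mb in the same order, so the first places differed by less than the replicates of Control did. The rest of the autosomes together had 10.9, 11.9, 13.9 and 14.6, and chromosome 20 stood at 1.44, 1.47, 1.42 and 1.37 times that level.

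The density was that of the long arm. On 20q (33.2 assembled Mb) there were 753 and 830 peaks in Control, against 954 and 948 in si-N6AMT1, or 22.6, 24.97, 28.7 and 28.5 per Mb. On 20p (26.3 assembled Mb) there were 181, 212, 218 and 237 peaks, or 6.89, 8.07, 8.30 and 9.03 per Mb. 20q was thus at 2.08, 2.10, 2.07 and 1.96 times the density of the other autosomes, and 20p below them at 0.634, 0.678, 0.599 and 0.619 times. The ratio of 20q to 20p was 3.29 and 3.09 in Control, against 3.46 and 3.16 in si-N6AMT1, and the groups overlapped (difference 0.119, exact permutation p = 0.667).

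Between the arms the median fold was alike, while pileup and −log10 p were higher on 20q. On 20p the median fold was 7.81 and 7.19 in Control, against 7.46 and 6.73 in si-N6AMT1. On 20q it was 7.98 and 7.28 in Control, against 7.12 and 6.81 in si-N6AMT1. Fragment pileups were higher on 20q, with medians of 21, 22, 23 and 24 fragments against 16, 17, 18 and 17. The median −log10 p was 16.1, 15.5, 15.9 and 15.4 on 20q, and 13.4, 12.8, 13.7 and 12.4 on 20p. The background that the peak caller applied, recovered from fold and p-value, had a median of 1.54 and 1.54 times its genome-wide level on 20q in Control, against 1.71 and 1.70 in si-N6AMT1. On 20p it was at 1 in all 4 libraries. This level is a floor, so a lower background on 20p would not be seen. On 20p, 63.0% to 74.8% of summits lay at the floor, and on 20q 0.105% to 4.82%.

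Peaks with a fold of 10 or more, a limit chosen after the data were seen, gave a steeper contrast. 20q had 227, 176, 188 and 151 of them and 20p had 35, 25, 25 and 24. Their density on 20q was 5.12, 5.56, 5.94 and 4.97 times that on 20p. Relative to the other autosomes, such peaks were at 3.54, 3.80, 3.51 and 3.55 times on 20q and at 0.691, 0.683, 0.590 and 0.714 times on 20p. The long arm was thus further above the other autosomes among strong peaks than among all peaks, in all 4 libraries. Copy number was not measured here, and the part of DNA dosage, background and sequence in the arm difference was not tested.

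**Figure D1:**
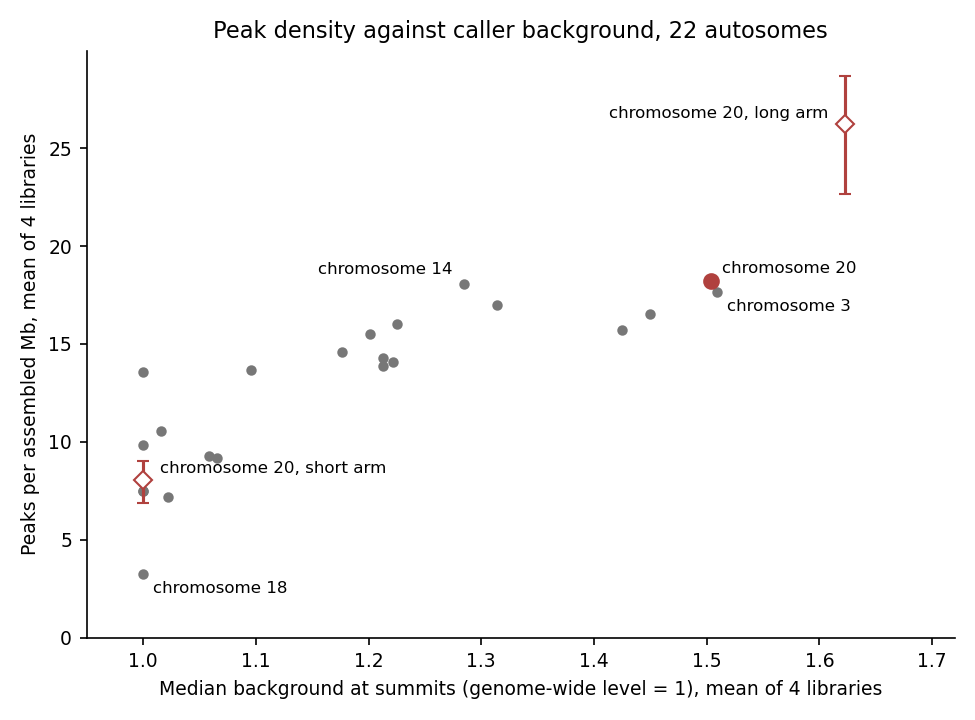
Each point is 1 autosome, with peaks per assembled Mb on the y axis and the median background at summits over the genome-wide level on the x axis, both as means of the 4 libraries; diamonds are the arms of chromosome 20, with bars from the lowest to the highest library density. The long arm lies apart at 22.6 to 28.7 peaks per Mb and the short arm sits among the sparse chromosomes at 6.89 to 9.03.

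Across the 22 autosomes, mean density followed the mean background (Spearman's rho 0.892, a description of points that share libraries and depth). It followed the number of genes per Mb (rho 0.274) and the GC content (rho 0.0966) far less closely. The median background on chromosome 20 was 1.41 and 1.43 times the genome-wide level in Control, rank 4 of 22, and 1.60 and 1.58 times in si-N6AMT1, rank 1. Each group has 1 input library, so input and group cannot be told apart in this difference.

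The step between the arms was sharp in windows of 5 Mb. The 5 windows of 20p up to 25 Mb had mean densities of 6.05 to 9.35 peaks per Mb and a background at the genome-wide level. The 7 windows from 30 Mb to the end of 20q had 20.1 to 29.7 and a background of 1.39 to 1.75 times that level. The window from 25 to 30 Mb spans the centromeric gap and belongs to both arms. Its first Mb, on 20p, held 9.50 peaks per Mb, and the 0.430 assembled Mb on the 20q side held 22, 22, 29 and 27 peaks. The sparsest window, 5 to 10 Mb, held 5.00 and 6.40 peaks per Mb in Control, against 5.60 and 7.20 in si-N6AMT1. The densest, 30 to 35 Mb, held 25.5 and 27.9 in Control, against 31.9 and 33.5 in si-N6AMT1. Within each library the highest window exceeded the lowest 4.36-fold to 5.70-fold.

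**Figure D2:**
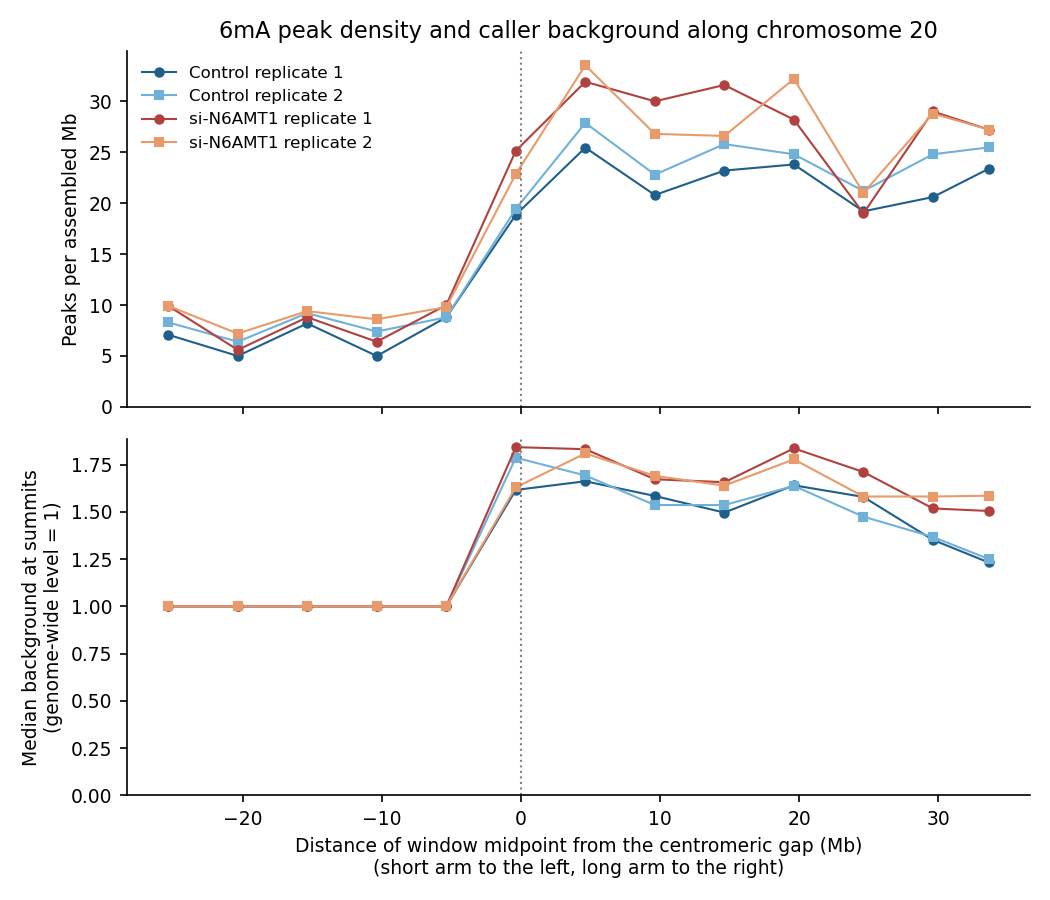
The upper panel plots peaks per assembled Mb and the lower panel the median background at summits over the genome-wide level, for the 13 windows of 5 Mb, against the distance of the window midpoint from the centromeric gap in Mb; each line is 1 library. All 4 lines step up at the gap, from window means of 6.05 to 9.35 on the short arm to 20.1 to 29.7 beyond it.

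The order of the 13 windows was close to the same in every pair of libraries (rho 0.900 to 0.956). Window density moved with GC content (rho 0.764), background (rho 0.780) and gene starts per Mb (rho 0.588), but not with median fold (rho 0.0714), again as a description. These windows span both arms, so the values include the step between the arms, and neither arm was taken alone. In 9 of the 13 windows both si-N6AMT1 densities lay above both Control densities. Both whole si-N6AMT1 lists were longer than both Control lists, by 24.8% in mean, so this count is no result about the windows. By group mean, si-N6AMT1 lay above Control in 12 of the 13 windows. The exception, the window from 50 to 55 Mb, had 19.2 and 21.2 in Control, against 19.0 and 21.0 in si-N6AMT1. This window holds the amplicon gene ZNF217 and TSHZ2. The last window, from 60 Mb to the telomere, was the richest in GC at 55.5% and had the strongest peaks, with a median fold of 10.2 and 8.40 in Control, against 8.93 and 7.95 in si-N6AMT1. It also had the largest share of regions called in all 4 libraries of the 13 windows, 52.0% (53 of 102). Within it the density was uneven, at 39.0 peaks per Mb from 60 to 61 Mb, 18.6 from 61 to 62 Mb and 18.9 from 62 to 63 Mb. Part of the gene CDH4, described below, lies from 60 to 61 Mb, and its share in these values was not separated.

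Over the whole chromosome the median fold was 7.85 and 7.19 in Control, against 7.16 and 6.80 in si-N6AMT1. The difference was -0.540 (exact permutation p = 0.333), and the groups were apart by 7.194 against 7.161. It was -0.214 without Control replicate 1, -0.867 without Control replicate 2, -0.359 without si-N6AMT1 replicate 2 and -0.141 with equal numbers of peaks. In fold, chromosome 20 had rank 5 of the 22 autosomes in every library. By −log10 p, which grows with the number of fragments as well as the ratio, the medians were 15.6, 14.8, 15.3 and 14.7, and the ranks were 3, 2, 1 and 1. Peaks had a median width of 455, 453.5, 456.5 and 465 bp and covered 0.893% and 0.978% of the assembled chromosome in Control, against 1.11% and 1.12% in si-N6AMT1.

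Regions on chromosome 20 were shared between libraries more often than in the series. All 4 libraries called 473 of the 2017 regions (23.5%), against 16.7% of regions in the series. Among the 22 autosomes this share had rank 3, in a range of 10.4% to 28.5%. Only Control libraries, both of them, called 55 regions (2.73%, against 2.62% in the series), and only both si-N6AMT1 libraries called 125 (6.20%, against 5.86%). Shares close to the background are no result about the chromosome. With equal numbers of peaks from each library the counts were 64 and 85. A single library called 916 regions (45.4%), split as 160, 211, 247 and 298.

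Sharing was also a matter of the arm. On 20q 409 of 1563 regions were called in all 4 libraries (26.2%), and on 20p 64 of 454 (14.1%). Control-only regions made up 3.08% on 20p and 2.62% on 20q, and si-N6AMT1-only regions 5.29% and 6.46%. Of Control peaks on chromosome 20, 63.2% overlapped a peak of the other Control library, as a mean of both directions. In si-N6AMT1 this was 64.2%, and across groups 60.4%. Libraries of different groups thus shared nearly as many of their peaks as replicates did.

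**Figure D3:**
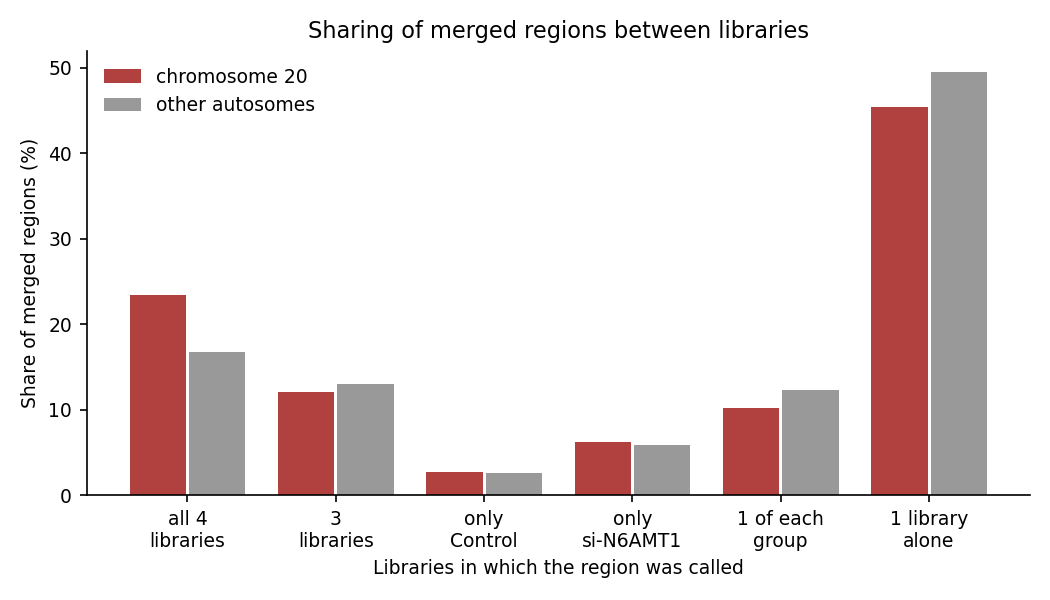
Bars give the share in percent of merged regions by the libraries that called them, for the 2017 regions of chromosome 20 and for the regions of the other autosomes. The all-4 class is larger on chromosome 20 (23.5%) than elsewhere, and the single-group classes are nearly level.

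Shared regions were the strong ones. The highest fold in any library had a median of 11.3 in regions called in all 4 libraries, 7.42 in Control-only regions, 6.89 in si-N6AMT1-only regions and 5.92 in regions of a single library. Their median widths were 682, 505, 480 and 391 bp. Calling in more libraries itself favours a higher maximum and a wider merged region. The widest region, 25368 bp at chr20:29804032-29829399, lay beside the centromeric gap, 37.5 kb from the beta-defensin gene DEFB115, with a fold of 15.7 and 13.99 in Control, against 11.2 and 9.95 in si-N6AMT1.

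In the 473 shared regions the median fold was 9.77 and 9.16 in Control, against 9.35 and 8.88 in si-N6AMT1, and the groups overlapped (exact permutation p = 0.667). Both si-N6AMT1 values exceeded both Control values in 88 regions (18.6%), and the reverse held in 119 (25.2%). On the other autosomes these shares were 16.9% and 24.3%. By −log10 p the balance turned, with 148 regions (31.3%) higher in si-N6AMT1 and 53 (11.2%) higher in Control, beside 22.2% and 15.5% on the other autosomes, so the direction of a region's change depended on which strength was read.

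The regions called in 1 group alone were weaker than the leading shared ones. The highest-ranking Control-only region lay in an intron of PTPRT, a receptor protein tyrosine phosphatase, with a fold of 10.6 and 9.17 and a run of T on its summit. The next were 41.3 kb from the endothelin gene EDN3 (11.2 and 9.31) and in a promoter of a noncoding gene (9.76 and 9.73). The latter reached into the end of SNAP25, with its summit 574 bp past that end. Among the 3 highest-ranking si-N6AMT1-only regions were those in introns of PTPRT (9.20 and 9.11) and of PREX1, a Rac exchange factor (8.19 and 9.43). PTPRT thus held a region of each kind.

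Few summits lay in exons. Exons held 0.964% and 0.480% of summits in Control, against 0.853% and 0.675% in si-N6AMT1, although they make up 3.64% of the sequence. Introns held 51.2% and 50.2% in Control, against 49.7% and 48.5% in si-N6AMT1, beside 51.5% of the sequence. The intron difference was -1.55 percentage points (exact permutation p = 0.333), and -0.941 without si-N6AMT1 replicate 2. Intergenic summits made up 43.8%, 46.4%, 46.2% and 47.9%, beside 41.0% of the sequence, and promoters, within 1000 bp of a start site, 4.07%, 2.98%, 3.24% and 2.87%, beside 3.92%.

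The letters at summits set the peaks apart from their surroundings. Repeats of GAAA (GAAAGAAA in any phase, both strands) were in 28.2% of the 200-bp windows on summits as a mean of the libraries, in 8.74% of windows 1000 bp to either side and in 7.80% of all such windows on the chromosome. GA repeats (GAGAGAGA) were in 18.9%, 3.21% and 3.42% of the same windows, GGAA repeats (GGAAGGAA) in 18.4%, 5.53% and 5.36%, and CA repeats (CACACACA) in 15.5%, 3.67% and 3.66%. These motifs can overlap each other. GGAT repeats (GGATGGAT), searched after the sequences had been seen, were in 10.0%, 2.67% and 2.43%. All of these repeats were several times as common on summits as beside them. Runs of A were in more summit windows than any of these, at 31.7%, but were also more common elsewhere, at 12.6% in flanks and 11.5% of the chromosome. Simple repeats are known to be enriched in immunoprecipitated DNA also without the mark. No library of a control antibody was analysed here, and that part was not tested.

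In a part of the summits, 1 strand was made up mostly of purines, A and G. At least 80% of 1 strand was purine in 21.0% and 19.002% of summit windows in Control and in 20.2% and 17.7% in si-N6AMT1. All windows of the chromosome gave 0.220%, and windows 1000 bp away 0.171% to 0.288%. The MROH8 sequence above shows the pattern. It was more common on 20p, where 22.4% to 28.9% of summits had it, than on 20q with 16.6% to 19.9%, in all 4 libraries.

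**Figure D4:**
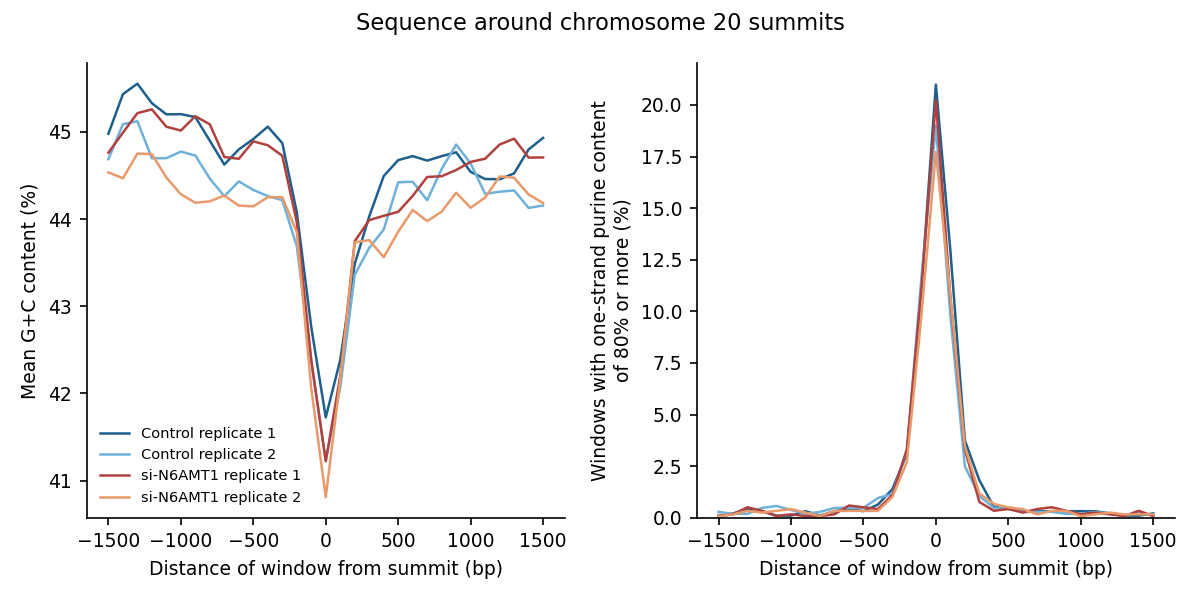
The left panel plots mean G+C content in percent and the right panel the percent of 200-bp windows with at least 80% purine on 1 strand, against the distance of the window from the summit in bp; each line is 1 library. G+C content dips to 40.8% to 41.7% on the summit, and the purine-rich share peaks there at 17.7% to 21.0%.

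The repeats differed with sharing. GGAT repeats were in 17.5% of regions called in all 4 libraries and in 3.28% of those called in 1. CA repeats were in 19.7% and 11.4%, and windows with 80% purine on a strand made up 28.5% and 6.77%. Runs of A (AAAAAAAA) went the other way, at 16.5% of regions in all 4 libraries and 50.5% of regions in 1. The word CAGGCTGG behaved like the runs of A, at 5.07% and 25.9%. Over all summits CAGGCTGG was in 13.0% of windows as a mean of the libraries, beside 11.9% in flanks and 10.3% of the chromosome. In Control replicate 1 it was rarer on summits (10.7%) than in flanks (11.5%), and in the other libraries more common. The shorter words CAGGC or CAGGT were rarer on summits (39.9%) than in flanks (64.6%), and so was CG (63.8% and 79.6%). No annotation of repeats was used here, so no repeat family is named.

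CDH4, the gene for R-cadherin, a calcium-dependent adhesion molecule, stood out among the 547 protein-coding genes. Its 688 kb in the last part of 20q held 38 regions, of which 30 were called in all 4 libraries. The libraries had 34 and 34 peaks in CDH4 in Control, against 33 and 35 in si-N6AMT1, so the number differed little between groups. No CDH4 region was called in only Control or only si-N6AMT1. The gene takes up 1.16% of the assembled chromosome and held 6.34% of its regions in all 4 libraries, at 4.36 per 100 kb against 0.795 over the chromosome. The chromosome-wide rate is below that of 20q, the arm of CDH4, with 409 such regions on 33.2 Mb, against 64 on 26.3 Mb of 20p.

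The 30 CDH4 regions lay between chr20:59879524 and 60469030, with a median gap of 13.6 kb, and 29 had their summit in an intron. Their median fold was 11.99 and 12.03 in Control, against 12.4 and 11.3 in si-N6AMT1, and the groups overlapped (difference -0.131, exact permutation p = 1). In 7 regions both si-N6AMT1 values were above both Control values, and in 6 the reverse held. Over the 473 shared regions of the chromosome these cases made up 18.6% and 25.2%, so counts this small are no result about CDH4. The strongest by rank, shown above, had a fold of 19.6 and 14.6 in Control, against 16.1 and 14.7 in si-N6AMT1. On 11 of the 30 summits lay GGAT repeats, on 10 CA repeats, on 1 a run of A, and on 0 GGAA or GAAA repeats. Other cadherin genes of the chromosome had fewer: CDH22 had 6 regions with 3 in all 4 libraries, and CDH26 had 4 with 1.

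**Figure D5:**
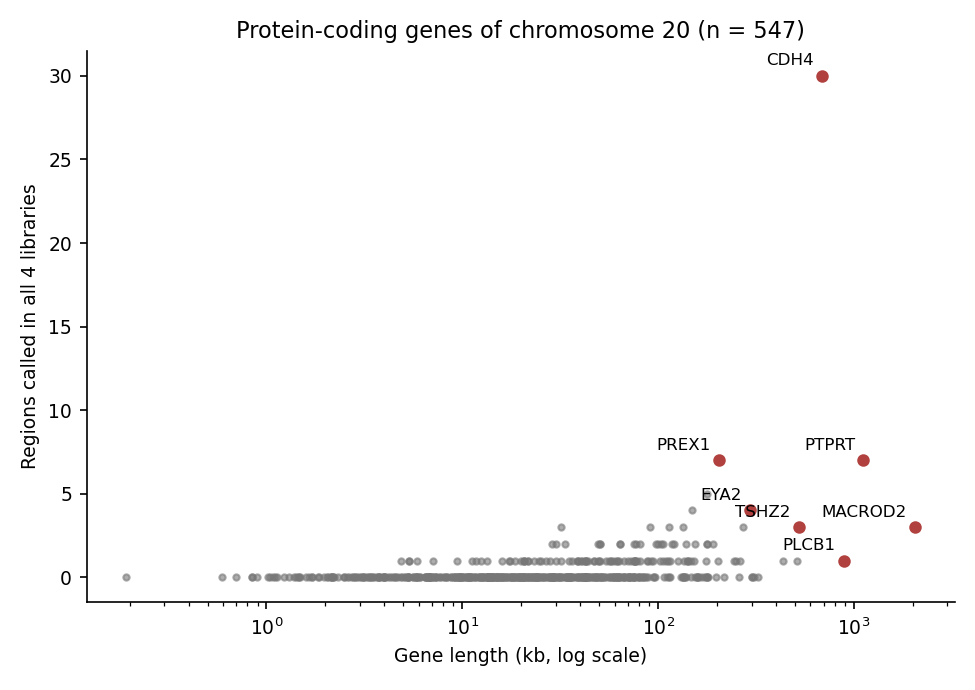
Each point is 1 of the 547 protein-coding genes, with its length in kb on a log scale and the number of its regions called in all 4 libraries. CDH4 lies at 30 regions, while PTPRT and PREX1 follow with 7.

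The longer genes of the chromosome held fewer regions than CDH4. MACROD2, an ADP-ribose hydrolase gene of 2058 kb on 20p, held 28 regions with 3 in all 4 libraries, and its peaks numbered 7, 13, 14 and 13. PTPRT, of 1117 kb on 20q, held 35 with 7, and its peaks numbered 17 and 15 in Control, against 20 and 18 in si-N6AMT1. PREX1 reached 12 with 7 in 204 kb, and 3 of its regions were called only in si-N6AMT1. Its peaks numbered 7 and 7 in Control, against 11 and 11 in si-N6AMT1, the groups without overlap. The si-N6AMT1 lists were longer as a whole. The highest fold in PREX1 went the other way, at 16.1 and 13.4 in Control, against 9.76 and 9.43 in si-N6AMT1, also without overlap. EYA2, a phosphatase and transcriptional coactivator, held 6 with 4. The ubiquitin ligase gene ITCH held 15 with 4, and the overlapping model ENSG00000289720 held 17 with 5, most of them the same regions. TSHZ2, a zinc finger gene, held 17 with 3. Per 100 kb, among genes of 50 kb or more, the next densest after CDH4 were TTI1 (3.96 regions in all 4 libraries), the nuclear export gene CSE1L (3.94), PREX1 (3.44) and TRPC4AP (3.32). TTI1, whose product stabilises kinases of the mTOR family, and CSE1L each had 2 such regions.

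A region lay in 290 of the 547 protein-coding genes (53.0%), and a region in all 4 libraries in 121 (22.1%). The share with a region was 10.3% in genes under 10 kb, 52.1% from 10 to 50 kb, 92.1% from 50 to 200 kb and 20 of 20 above. Among 23 genes of 20q that breast tumours often amplify, 20 had a region (87.0%, against 60.4% of the 361 protein-coding genes of 20q). In 8 a region was called in all 4 libraries (34.8%, against 28.8% on 20q). The median length of the 23 was 50.7 kb, against 24.2 kb over all protein-coding genes of the chromosome. NCOA3, a coactivator of the oestrogen receptor, held 13 regions, 2 of them in all 4 libraries, with 5 and 7 peaks in Control, against 6 and 8 in si-N6AMT1. EYA2 had 4 such regions, PTPN1 and CSE1L 2 each, and CYP24A1, PFDN4, EEF1A2 and PTK6 1 each. AURKA, which encodes a mitotic kinase, had a peak in Control replicate 2 alone, and ZNF217 in si-N6AMT1 replicate 1 alone. The short genes UBE2C, E2F1 and TFAP2C had no region.

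Of 15 cell cycle and replication genes, 10 held a region (66.7%, against 53.0% of all protein-coding genes of the chromosome) and 1 had one in all 4 libraries (6.67%, against 22.1%). It was RBL1, a relative of the retinoblastoma gene, with 5 and 3 peaks in Control, against 7 and 5 in si-N6AMT1. PCNA, the replication clamp, had 1 peak, in Control replicate 1. Of 17 chromatin genes, 14 held a region (82.4%) and 7 had one in all 4 libraries (41.2%). These genes were long, with a median of 81.0 kb, against 24.2 kb over all protein-coding genes. Per 100 kb the chromatin list held 2.75 regions, against 3.26, and 0.312 in all 4 libraries, against 0.692. These pooled rates depend heavily on MACROD2, a member of 2058 kb on 20p, with 1.36 regions and 0.146 in all 4 libraries per 100 kb. Rates without MACROD2 were not computed, so the lower pooled rates do not describe the rest of the list. Among the 7 were DNMT3B, a cytosine methyltransferase, with 1 peak in every library, and ASXL1, a polycomb-associated gene. ASXL1 had 3 and 3 peaks in Control, against 6 and 5 in si-N6AMT1. PHF20 held 14 regions with 2 in all 4 libraries. CHD6, a chromatin remodeler of 216 kb, held 12 regions but 0 in all 4 libraries.

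Of 23 developmental regulators, 8 held a region (34.8%, against 53.0% of all protein-coding genes) and 5 had one in all 4 libraries (21.7%, against 22.1%): TSHZ2, HNF4A, BMP7, OVOL2 and NFATC2. BMP7, a secreted growth factor, had 2 peaks in each library, both in shared regions. The short genes FOXA2, PAX1, CEBPB, SOX18 and GATA5 had none, nor did the Notch ligand gene JAG1 or BMP2. The density of the list per 100 kb, 3.41 regions, was close to the 3.26 over all protein-coding genes.

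Gene families in tandem arrays are given beside all genes of their arm. A region lay in 60.4% of the 361 protein-coding genes of 20q and in 38.7% of the 186 of 20p, and a region in all 4 libraries in 28.8% and 9.14%. Of 7 beta-defensin genes of 20q, which encode antimicrobial peptides, 3 held a region, in each case one called in all 4 libraries: DEFB116, DEFB118 and DEFB119 in the cluster beside the gap. Of the 6 on 20p, 0 held a region. Of 9 genes of the BPI fold family on 20q, lipid-binding proteins of mucosa, 5 held a region and 4 had one in all 4 libraries, with 3 in BPIFB4 alone. Of 11 WFDC protease inhibitor genes of 20q, 7 held a region and 3 had one in all 4 libraries. On 20p, 0 of the 5 SIRP receptor genes had a region in all 4 libraries, and 1 had any. Of 12 genes whose symbol begins with CST, 1 held a region, CST11, called only in Control. A further region, with its summit 1266 bp from CST11, was called in all 4 libraries. The 12 include CSTF1, a polyadenylation factor gene of 20q and no cystatin.

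Within 1000 bp of a start site of a protein-coding gene, counted by any base of the region, lay 15 regions in all 4 libraries; the summits of those at CST11, RNF24 and MMP24 fell outside promoters. The strongest, near FOXS1, a forkhead factor gene, had a fold of 18.2 and 12.8 in Control, against 18.2 and 15.2 in si-N6AMT1. APCDD1L had 17.6 and 15.7 in Control, against 12.5 and 11.6 in si-N6AMT1, both lower. ARFGEF2, which acts in vesicle transport, had 12.3 and 12.9 in Control, against 13.7 and 14.5 in si-N6AMT1, both higher. TGM2, a transglutaminase gene, gave 13.6 and 9.07 in Control, against 7.58 and 6.91 in si-N6AMT1, and the groups did not overlap. BPIFB4 was likewise higher in Control, at 14.4 and 12.6 against 7.79 and 8.88. NPEPL1, whose promoter lies within the readthrough gene STX16-NPEPL1, had 9.65 and 10.6 in Control, against 15.5 and 10.1 in si-N6AMT1. The others were near CST11, DEFB116, DEFB119, EPPIN (with its readthrough EPPIN-WFDC6), WFDC11, RNF24, MMP24, ZNFX1 and TSHZ2, and their folds ran from 3.81 to 16.2. Of these, RNF24 (7.59 and 9.31 against 5.25 and 6.22) and WFDC11 (6.62 and 7.11 against 3.81 and 4.78) were higher in Control without overlap. DEFB116 was lower in Control without overlap, at 7.32 and 6.81 against 10.7 and 7.96. Over all shared regions of the chromosome, 25.2% were higher in Control in this way and 18.6% higher in si-N6AMT1. With 2 libraries a group, none of these single differences could pass a test.

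The 5 longest empty stretches lay on 20p. The median distance between neighbouring regions was 15.4 kb. The longest stretch without a region in any library was 540 kb, chr20:9274235-9813917, over parts of PLCB4 and PAK5 and all of LAMP5. The next were 452 kb at PLCB1 and PLCB4 and 429 kb within MACROD2. The longest protein-coding genes without a region were SEL1L2 (147 kb), ENSG00000260861 (79.9 kb), ESF1 (70.6 kb), RRBP1 (68.6 kb) and EBF4 (67.3 kb), all on 20p.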

How the data were processed

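Read pairs were cleaned by the authors (Trimmomatic), placed on hg19 (Bowtie2 2.3.5) and freed of duplicates (SAMtools 1.9), and MACS2 was run per immunoprecipitated library at p = 1e-05. Which input entered each call is not given in the sources used here. The 2 input libraries, 1 a group, were not analysed here. The deposited peak lists give a score per peak, the fold enrichment as a ratio, and −log10 p and −log10 q values at the summit. Groups came from the sample titles, and the labels call the replicates biological without naming separate cultures, so p-values measure the spread between these libraries.

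Pileup and background were recovered from fold and −log10 p (whole pileups within 0.02 for 100% of peaks). The lists' lowest background gave relative depth; read totals were not used here. At median chromosome 20 pileups of 19 to 22 fragments, counting error alone can decide a weak call.

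Peaks of all libraries sharing 1 bp or more were merged. Arms were split at the longest assembly gap, and assembled length leaves out gaps. Sequence was GRCh37, and genes were GENCODE 44 lifted to it. A summit went to a promoter, then exon, intron or intergenic sequence. A gene held a region that overlapped its body. Values per library were compared with exact two-sided permutation tests over 6 assignments (Python 3.11.15, numpy 2.4.6, scipy 1.17.1, matplotlib 3.10.9; scripts were tested on simulated data). The study compared signal with a MACS2 function that needs tracks; called regions were compared here.

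The members, gene lists and tests were chosen with earlier results of these data known. Named regions were the 5 in all 4 libraries and the 3 of each group with the highest lowest within-list percentile of −log10 q. Named genes were those with most regions in all 4 libraries, in number (8) and per 100 kb (5, from 50 kb), promoter genes, the 5 longest without a region, and list members. Alternatives were stricter lists (−log10 q or fold of 5 or more), equal numbers of peaks, other overlap, promoter, window, flank and length rules, the centromeric 3 Mb left out, a replicate block, and each library left out. Some named regions and 1 list member are not reported here on their own.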

Additional observations from a re-analysis of the deposited data

How the results depend on the processing

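Of the alternatives run, 90 values kept their direction or stayed within a set limit, 11 moved and 3 reversed. For levels the limit was the spread of the libraries, and for overlap the gap between the overlaps of the groups. For counts of regions and genes it was a fixed factor. The fall of si-N6AMT1-only regions from 125 to 85 with equal numbers of peaks thus lay within it. With equal numbers of peaks, the share difference became 0.0833 percentage points and the density relative to the other autosomes 1.49 (mean of 4 libraries, 1.43 before). The difference between groups in the 20q to 20p ratio, 0.119, was -0.0297 without si-N6AMT1 replicate 1 and ran up to 0.267 without si-N6AMT1 replicate 2. CAGGCTGG, 1.13 percentage points more common on summits than in flanks in 200-bp windows, was -1.89 points in 100-bp windows. Control replicates overlapped at 64.2% of peaks at −log10 q of 5 or more, and at 59.7% when 50% of each peak had to overlap; the latter gave 59.9% in si-N6AMT1. The causes were not tested. Leaving out 1 library in turn lowers the libraries a class needs by construction: regions only in Control, 55, then numbered 99 to 267, and regions only in si-N6AMT1, 125, numbered 182 to 424.

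Same-numbered libraries did not deviate together over the 2017 regions (correlation -0.0406), so the number was not taken to pair them. With a replicate block the differences were the same by construction, at 190.5 peaks, -0.135 points of share, 0.119 in the arm ratio, -0.540 in fold and -1.55 points in introns, and the smallest p of its exact sign-flip test is 0.5. No test here can reach 0.05, and counting error at low pileups limits single calls.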
